A study of Mus musculus with 6 samples.

Results

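The genes described here are the protein-coding genes that the array files name by a RefSeq mRNA accession. They were found as all non-control probes whose systematic name starts with NM_, and 6 common reference genes (Actb, B2m, Gapdh, Hprt, Ppia and Tbp) were left out by rule. This gave 112 of 59709 probes, for 110 genes, and the RefSeq gene table gave a symbol for 106 of the 112 accessions. The other 6 accessions are called by their accession below. Gm3286 and Ppp2r3d each have 2 probes. Cy3-labeled RNA from cardiac biopsies of mice (strain C56BL7 in the records, female, 12 months of age) was hybridized to 6 arrays, 2 in each of 3 groups. Mice 004 and 008 underwent ischemic preconditioning (IPC) by reversible ligation of the left coronary artery, with 4 rounds of 4 min of ischemia and 30 min of reperfusion at the end by the records (the methods give another cycle length), and gave the IPC AAR and IPC RM groups. Mice 012 and 013 underwent the sham procedure and gave the sham AAR group. The records give no genetic alteration for any group, and no RM biopsy of a sham mouse was analysed here. The AAR (area at risk) is the muscle fed by the ligated artery, and the RM (remote myocardium) lies outside it. According to the methods the RM was cut from the right ventricle, so the AAR and RM differ by chamber as well as by ischemia, and these cannot be told apart. The 4 IPC arrays shared a slide and the sham arrays shared another, so the effect of the slide and that of the sham treatment cannot be told apart either.

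IPC is a procedure in which short, harmless occlusions make the heart withstand a later long occlusion better, and part of the response is a rapid change in transcript levels. The members are a mixed set. Nono encodes an RNA-binding protein that assembles with other proteins on the long noncoding RNA Neat1 into nuclear bodies called paraspeckles. Several members are genes that laboratories use as internal standards, such as Tuba1b, Rpl13a and Hsp90ab1. Many others belong to families that exist in near-identical copies: the ampliconic genes of the Y long arm (Sly, Ssty1 and relatives), which are known from spermatids, the vomeronasal receptors, which sense pheromones, the Ccl21 chemokines and the histone H2A genes. For such families a probe can bind the transcripts of several copies, so their values are those of a probe and cannot be assigned with certainty to a single gene. The markers fixed for heart muscle, endothelium, fibroblasts, blood and the other cell types that a biopsy can hold have 0 members among these probes, so the tissue could not be checked against its defining genes.

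The libraries differed in signal and in the Y-linked members, and this bears on all comparisons. The share of spots well above background was highest on the RM arrays (78.5% and 80.6%), lower on the IPC AAR arrays (68.2% and 70.7%) and 61.2% and 72.3% on the sham arrays, and no spot was saturated. Of the 112 members, 76 and 82 were well above background on the IPC AAR arrays, 91 and 89 on the RM arrays, and 71 and 82 on the sham arrays. In all, 69 members were above background on all 6 arrays, 29 on 1 to 5 arrays and 14 on none. The members include 23 genes of the Y chromosome, although the records list every mouse as female (the methods name male and female mice). Of these 23, 7 and 8 were above background on the IPC AAR arrays, 16 and 15 on the RM arrays, and 5 and 8 on the sham arrays. Exactly 6 members were above background on both RM arrays and on none of the 4 AAR arrays, and all 6 are Y-linked (Gm20736, Gm20831, Gm20852, Gm20877, Sly and Ssty1). Over all 59709 probes 2.98% had this pattern. The detection floor, taken as the lowest normalized signal marked well above background, differed too: on the log2 scale it was 2.98 and 2.73 on the RM arrays, 4.13 and 3.88 on the IPC AAR arrays, and 4.60 and 3.51 on the sham arrays. Of the 6 members, only Sly had RM values above the floors of all 4 AAR arrays, and Gm20831 had RM values above those of both IPC AAR arrays. The other 4 had at least 1 RM value below the higher floor of the IPC AAR arrays. The pattern of both arrays of an AAR group and no RM array was seen for 0 members. It was not counted over all probes, and the lower floors of the RM arrays leave less room for it. The AAR and RM biopsies of mouse 004, and likewise those of mouse 008, are from the same animal by the records. Sly and Gm20831, whose RM values cleared the IPC AAR floors, thus separated samples that share an animal. For the other 4 members the unequal floors do not allow this to be said. The cause was not tested.

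**Figure D1:**
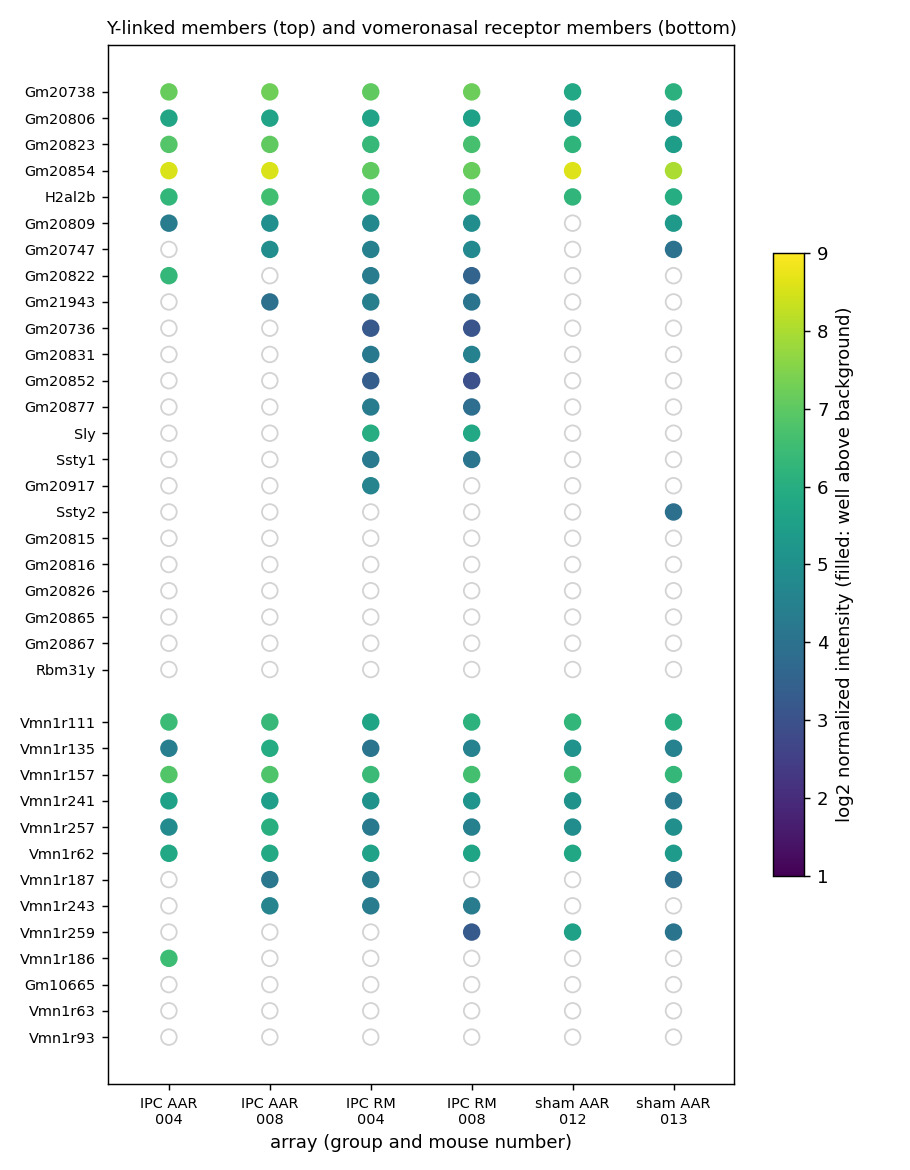
Detection of the 23 Y-linked members (top) and the 13 vomeronasal receptor members (bottom) on each of the 6 arrays, with 1 circle per probe and array. Filled circles are well above background and colored by log2 normalized intensity, and open circles are not. The RM columns hold 6 Y-linked probes that are open on all 4 AAR arrays.

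The members above background on both RM arrays and no AAR array can be seen in Sly and Ssty1, spermatid genes of the Y long arm. Sly read 3.04 and 2.76 on the log2 scale in the IPC AAR, 5.97 and 5.80 in the RM, and 3.76 and 1.34 in the sham AAR. Only the RM values were well above background, and they lay above all others. Against the lowest signal marked well above background on the AAR arrays, Sly was at least about 3.69-fold higher in the RM than in the IPC AAR. Against the sham AAR the fold was at least about 3.56. The adjusted p-values were 0.00183 and 0.243. They come from limma on the normalized values, which lie below background in the AAR, and do not test these folds. Ssty1 read 1.41 and 2.49 in the IPC AAR, 4.27 and 4.12 in the RM, and 1.39 and 1.38 in the sham AAR. In the same way Ssty1 was at least about 1.14-fold higher in the RM than in the IPC AAR, although its RM value of 4.12 lay below the higher IPC AAR floor. The limma fit of its normalized values gave an adjusted p of 0.0238. Gm20852, a Y-linked gene of uncertain role, read 1.41 and 1.40 in the IPC AAR, 3.37 and 2.94 in the RM, and 2.20 and 1.80 in the sham AAR. Its RM values lay below the detection floor of both IPC AAR arrays, so no fold or test is given. Gm20831 was at least about 1.29-fold higher in the RM than in the IPC AAR, and the limma fit of its normalized values gave an adjusted p of 0.0119. Sly, Ssty1 and Gm20831 were tested only because they were above background in the RM. Entry through the RM alone favours a lower value in the AAR, so the p-values do not support these differences. It does not force one, since Gm20736 entered in the same way and did not pass (adjusted p = 0.531). The promoters of Ssty1 and Gm20852 are shown because both probes were above background only in the RM. They are the 150 bases upstream of the annotated start in RefSeq (GRCm38.p6), at chrY:18089017-18089166 on the plus strand and at chrY:66742171-66742320 on the minus strand. CCAAT, searched on both strands (ATTGG on the other), occurs in neither window, while 24.5% of all 32851 such windows hold it. Over 300 bases around the start the promoters aligned with 71.7% identity.
Ssty1: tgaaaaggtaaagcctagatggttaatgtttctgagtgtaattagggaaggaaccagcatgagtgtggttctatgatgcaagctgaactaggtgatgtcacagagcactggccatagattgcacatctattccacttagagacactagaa
Gm20852: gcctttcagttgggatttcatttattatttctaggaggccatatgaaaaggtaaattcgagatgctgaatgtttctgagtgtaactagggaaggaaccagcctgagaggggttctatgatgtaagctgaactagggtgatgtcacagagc

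The other Y-linked members did not follow Sly. Gm20738, Gm20806, Gm20823, Gm20854 and H2al2b, a spermatid histone variant, were above background on all 6 arrays. Gm20854 read 8.53 and 8.55 in the IPC AAR, 7.04 and 7.15 in the RM, and 8.57 and 7.99 in the sham AAR, so the RM arrays were the lowest. It was 2.72-fold higher in the AAR than in the RM (log2 fold change 1.45 ± 0.08 SE, adjusted p = 0.00243). Of the Y-linked members, 15 were tested between the AAR and RM, and at an adjusted p below 0.05 the AAR was higher for 1 and lower for 4. All 4 lower members (Sly, Ssty1, Gm20831 and Gm20852) were tested through the RM only, which favours that direction. Of the 6 tested otherwise, 1 passed, while 49.2% of all probes tested did. Gm20815, Gm20816, Gm20826, Gm20865, Gm20867 and Rbm31y were above background on no array, Gm20917 and Ssty2 on 1, Gm20822 and Gm21943 on 3, Gm20747 on 4 and Gm20809 on 5.

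The first comparison, IPC AAR against IPC RM, asks which transcripts differ between ischemic and remote muscle of the same hearts. Most members that differed were modestly higher in the AAR, while the widest gaps in fitted values were in Jrkl, which was lower, and B020031M17Rik, which was higher. A test was run for members detected (marked well above background) on each array of the AAR, of the RM or of both, and 87 of 112 met this. At an adjusted p below 0.05, 47 members differed (54.0%), against 49.2% of all 46232 probes tested. Of the 47, 35 were higher in the AAR and 12 lower, and 28.5% of all probes tested were higher. With a fold change above 2 as a further condition, 11 members were called (12.6%), against 20.6% of all probes. Of these, 5 were higher (7.29% of all probes were called and higher) and 6 were lower. Among the 6 lower, Jrkl, Sly, Ssty1 and Gm20852 were tested through the RM only, which favours that direction. Another, Hsp90ab1, changed sign with a different scaling, described below. When only the 74 members above background on all 4 arrays were tested, 5 were called higher and 2 lower. The median log2 fold change was 0.40 over the tested members and 0.20 over all tested probes. The members that were tested through 1 group only numbered 13, all of them through the RM, and such entry favours a lower value in the AAR. These 13 hold 6 of the 12 lower members. Of the 74 other members tested, 41 passed. With the mouse as a block, since the AAR and RM share animals, 30 members passed in place of 47, and 29 passed in both fits. These counts leaned on the RM arrays: without the RM of mouse 004 only 6 members passed the adjusted p, and without that of mouse 008 only 5. Fewer cells of a type and less RNA per cell cannot be told apart in a biopsy.

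The scaling of the arrays mattered for the brightest members. Quantile normalization gives all arrays the same distribution of values, whereas scaling each array to its 75th percentile shifts all its values alike. With 75th percentile scaling the median over all tested probes moved from 0.20 to 0.33 and 25 members were called in place of 11, with 19 higher and 6 lower in the AAR. The 17 tested members with a mean log2 intensity above 12 moved up by a median of 0.70, and the 70 dimmer ones by 0.06. Mia3, Vamp7, NM_009268, Hsp90ab1 and Nono, all lower in the AAR, passed the adjusted p by quantile normalization and not by the 75th percentile. The reverse held for 8 members, Tmlhe, Gusb, Hmgcs1, Gm20877, Gm21953, Tsnax, Aida and Zfp131.

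**Figure D2:**
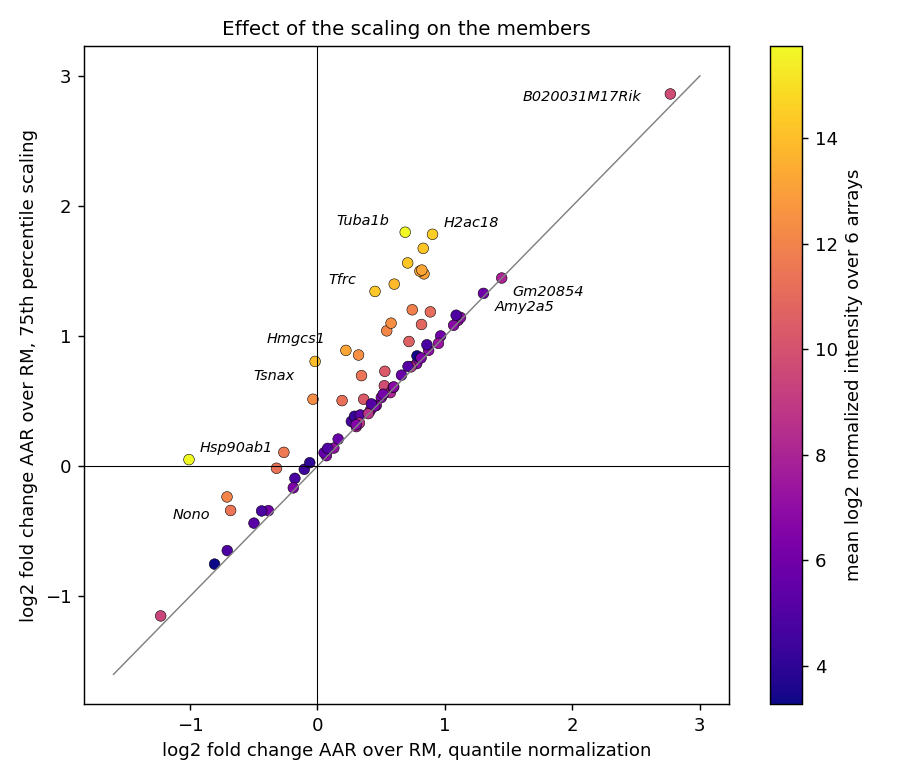
Log2 fold change of AAR over RM for 79 members (1 point each) with quantile normalization (x axis) and with 75th percentile scaling (y axis), colored by mean log2 intensity. Members that were dim on both AAR arrays and Jrkl (log2 fold change -5.44) are left out. Bright members lie above the diagonal of equality, and Hsp90ab1 changes sign.

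Nono, the paraspeckle protein, was lower in the AAR of both IPC mice. It read 11.70 and 11.73 on the log2 scale in the IPC AAR, 12.41 and 12.43 in the RM, and 12.12 and 12.14 in the sham group. The groups did not overlap, and the sham AAR lay between the IPC groups. The log2 fold change of AAR over RM was -0.71 ± 0.07 (SE, n = 2 arrays per group by limma, adjusted p = 0.00696), a 1.64-fold difference. With 75th percentile scaling it was -0.24 (adjusted p = 0.145, and 0.000215 to 0.145 over the 14 alternatives). Nono is printed at 20 spots per array, whose SD on the log2 scale was 0.0501 to 0.0922, and all 20 spots were above background on each array. Against the sham AAR the log2 fold change was -0.42 ± 0.14 for the IPC AAR (adjusted p = 0.127) and 0.29 ± 0.14 for the RM (adjusted p = 0.393). Of 21 genes listed for paraspeckles, Nono is the only one with a member probe. The other members of RNA processing were Tsnax, a partner of translin in RNA cleavage, with 13.96 and 13.96 in the IPC AAR and 14.01 and 13.95 in the RM (log2 fold change -0.0185, adjusted p = 0.851), and Rbm31y. Tsnax was 0.80 higher with 75th percentile scaling (adjusted p = 0.00837).

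Hsp90ab1, the constitutive cytosolic HSP90 chaperone, was among the brightest members. By quantile normalization it read 15.09 and 15.09 in the IPC AAR, 16.11 and 16.10 in the RM, and 16.05 and 16.02 in the sham group. The IPC AAR was the lowest group (log2 fold change over RM -1.01 ± 0.07, adjusted p = 0.00355). With 75th percentile scaling the same spots read 15.54 and 15.66 in the IPC AAR, 15.60 and 15.50 in the RM, and 16.12 and 15.83 in the sham AAR, and the IPC groups overlapped (log2 fold change 0.0503, adjusted p = 0.728, and 3.5e-05 to 0.728 over the 14 alternatives). Its direction between AAR and RM therefore depends on the scaling. Tuba1b, an alpha-tubulin, kept its direction: it read 16.11 and 16.10 in the IPC AAR, 15.41 and 15.42 in the RM, and 15.70 and 15.52 in the sham AAR. Its log2 fold change of AAR over RM was 0.69 ± 0.07 (adjusted p = 0.00713), and 1.80 with 75th percentile scaling. Both genes serve as internal standards, and 7 of the 9 members with 20 spots per array differed between AAR and RM at an adjusted p below 0.05, 5 higher and 2 lower in the AAR (49.2% of all probes tested passed, and 28.5% were higher). The 2 lower ones, Nono and Hsp90ab1, did not pass the adjusted p with 75th percentile scaling. With the mouse as a block 3 of the 9 passed, Tuba1b, Nono and Hsp90ab1. Rpl13a, of the large ribosomal subunit, was higher by 0.54 ± 0.07. Tfrc, the transferrin receptor for iron uptake, was higher by 0.45 ± 0.08, G6pd2, an intronless copy of glucose-6-phosphate dehydrogenase, by 0.57 ± 0.08, and Gk, glycerol kinase, by 0.46 ± 0.08. Gusb, lysosomal beta-glucuronidase, did not pass (0.19 ± 0.08, adjusted p = 0.115), nor did Ldhal6b, a lactate dehydrogenase A-like gene (0.29 ± 0.13, adjusted p = 0.151).

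B020031M17Rik, whose role is not established here, was the member with the largest increase in the AAR. It read 10.60 and 10.41 in the IPC AAR, 7.67 and 7.80 in the RM, and 10.93 and 10.83 in the sham AAR. Both AAR groups were far above the RM. The IPC AAR was 6.81-fold higher than the RM (log2 fold change 2.77 ± 0.11, adjusted p = 0.00139) and passed under all 14 alternatives. Against the sham AAR the log2 fold change was -0.38 ± 0.16 for the IPC AAR (adjusted p = 0.177) and -3.14 ± 0.15 for the RM (adjusted p = 0.159). Jrkl was the member with the lowest fitted value. It was tested through the RM only, which favours a lower value in the AAR. It read 4.11 and 4.70 in the IPC AAR, 9.86 and 9.84 in the RM, and 6.74 and 9.43 in the sham group. The IPC AAR lay lowest and only the array of mouse 008 was above background there, while the gap between the sham arrays was wider than that within either IPC group. The log2 fold change of AAR over RM was -5.44 ± 0.23 (adjusted p = 0.00153), a value that rests in part on the AAR array of mouse 004, where Jrkl was not above background. Against the sham AAR the log2 fold change of the IPC AAR was -3.67 ± 0.99 (adjusted p = 0.0928). Ccdc82, the next gene to Jrkl on chromosome 9, went the other way, with 12.34 and 12.29 in the IPC AAR and 11.62 and 11.53 in the RM (0.74 ± 0.08, adjusted p = 0.00796).

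**Figure D3:**
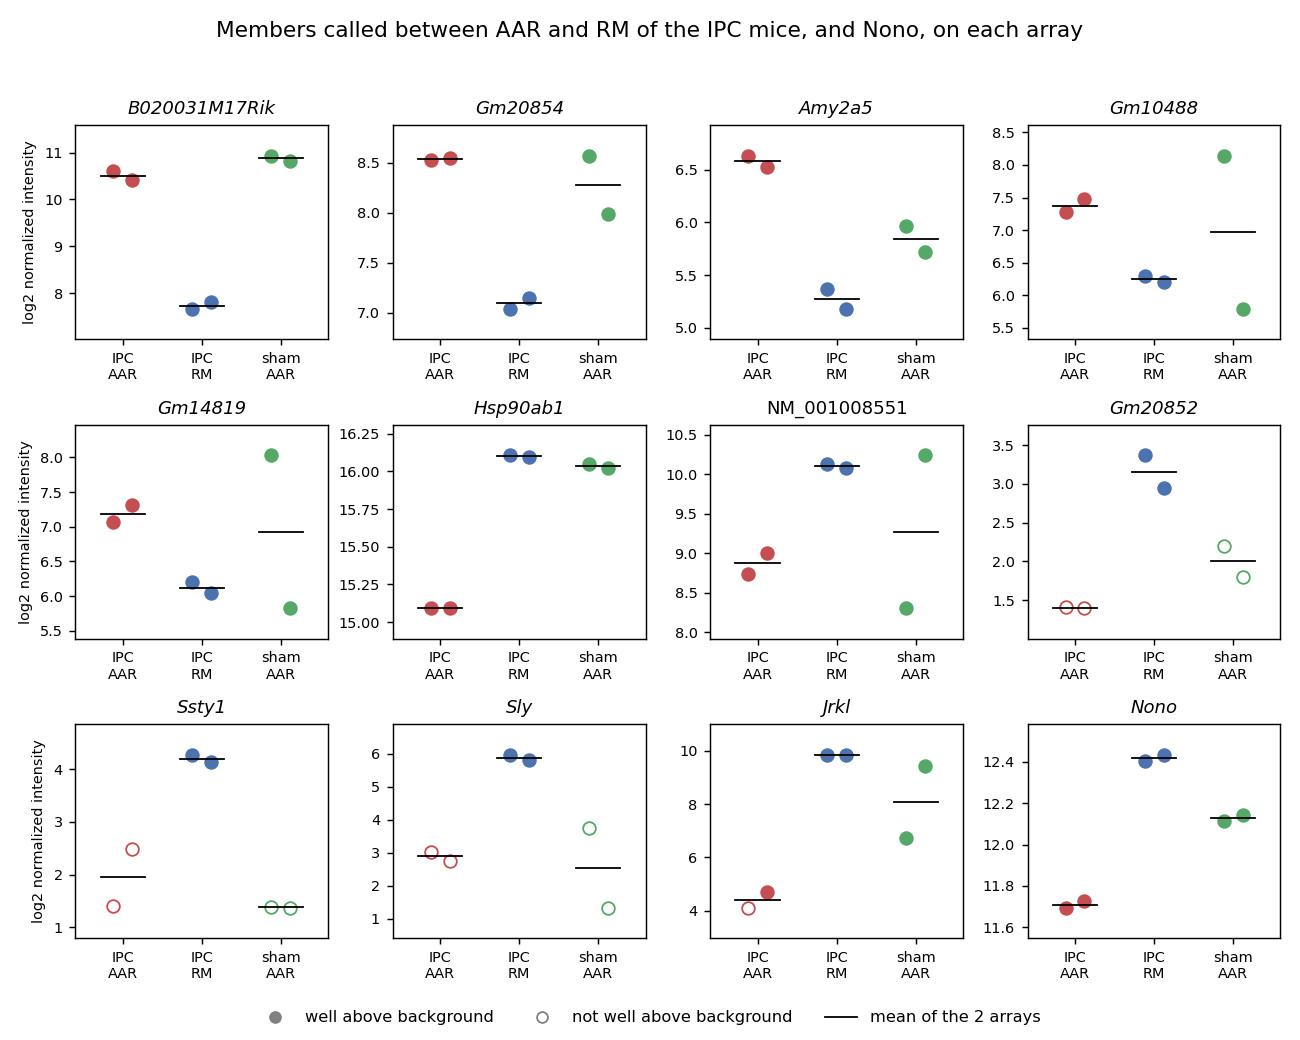
Log2 normalized intensity (y axis, own scale in each panel) on each of the 6 arrays for the 11 members called between the AAR and RM of the IPC mice and for Nono. Points are arrays, open where the probe was not well above background, and lines are means of 2 arrays. The IPC AAR and RM points do not overlap in any panel, but the 11 called members were chosen by a test between these groups.

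Amy2a5, a pancreatic amylase gene with several near copies, read 6.63 and 6.53 in the IPC AAR, 5.37 and 5.18 in the RM, and 5.97 and 5.72 in the sham group. The sham values lay between the IPC groups, and the AAR was 2.47-fold higher than the RM (log2 fold change 1.30 ± 0.11, adjusted p = 0.00477). The accession NM_001008551 read 8.73 and 9.01 in the IPC AAR, 10.13 and 10.07 in the RM, and 8.31 and 10.24 in the sham group. The sham arrays lay on either side of both IPC groups, and the AAR was lower than the RM by a log2 fold change of -1.23 ± 0.13 (adjusted p = 0.00711). Of the 6 accessions without a symbol, 5 passed the adjusted p, against 49.2% of all probes tested. NM_001177418 (0.89 ± 0.12), NM_001199947 (0.60 ± 0.08) and NM_011667 (0.59 ± 0.15) were higher in the AAR, and NM_009268 was lower (-0.68 ± 0.08). NM_009485 did not pass.

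Gm10488, Gm14819 and Gm10147, X-linked genes of uncertain role, had values that moved together on all arrays. Gm10488 read 7.28 and 7.47 in the IPC AAR, 6.30 and 6.20 in the RM, and 8.14 and 5.79 in the sham AAR. Gm14819 read 7.07 and 7.31, 6.20 and 6.04, and 8.03 and 5.82 on the same arrays. Gm10147 read 7.31 and 7.11, 6.51 and 6.17, and 7.96 and 5.84. For each of the genes the sham array of mouse 012 was the highest of all and that of mouse 013 the lowest, so the sham AAR overlapped both IPC groups. The AAR was higher than the RM by 1.12 ± 0.11 for Gm10488 (adjusted p = 0.0062), 1.07 ± 0.13 for Gm14819 (adjusted p = 0.00983) and 0.87 ± 0.17 for Gm10147 (adjusted p = 0.0247). Their promoters are shown because they make plain how alike these genes are. The windows are the 150 bases before the annotated start in RefSeq (GRCm38.p6), at chrX:28607875-28608024 on the minus strand, chrX:29976164-29976313 on the plus strand and chrX:35404065-35404214 on the plus strand. The capitals mark CCAAT, present in each. The windows of Gm10147 and Gm14819 were identical over all 300 bases around the start, and both shared an unbroken run of 297 bases with that of Gm10488. Probes for copies this similar may read the same transcripts, so the members should not be counted as independent genes. Gm10487 was above background on no array.
Gm10147: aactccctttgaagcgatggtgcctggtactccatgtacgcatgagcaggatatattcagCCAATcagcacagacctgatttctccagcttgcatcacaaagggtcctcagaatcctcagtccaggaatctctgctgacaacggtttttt
Gm10488: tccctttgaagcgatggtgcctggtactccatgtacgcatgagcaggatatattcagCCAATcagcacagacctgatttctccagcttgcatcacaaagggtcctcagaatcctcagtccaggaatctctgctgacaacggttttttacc
Gm14819: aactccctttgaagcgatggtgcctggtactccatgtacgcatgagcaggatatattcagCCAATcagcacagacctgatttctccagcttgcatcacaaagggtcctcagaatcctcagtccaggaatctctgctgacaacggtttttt

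Of the 10 members of transcription and chromatin, 8 were tested and 6 passed, 3 in each direction, against 49.2% of all probes. The 3 lower ones (H2ac23, Sly and Ssty1) were tested through the RM only, which favours that direction, and 3 of the 5 others passed. H2ac18 and H2ac19, neighbouring histone H2A genes on chromosome 3, were higher in the AAR. H2ac18 read 15.07 and 15.00 in the IPC AAR, 14.06 and 14.21 in the RM, and 14.46 and 14.21 in the sham AAR (log2 fold change over RM 0.90 ± 0.10, adjusted p = 0.00748). H2ac19 read 14.55 and 14.55, 13.87 and 13.57, and 14.45 and 14.29 (0.83 ± 0.13, adjusted p = 0.0175). The IPC AAR lay above the RM for both genes, and H2ac18 and H2ac19 were 1.78 and 1.67 higher with 75th percentile scaling. The promoters of these genes are shown because the genes moved alike. They lie at chr3:96245347-96245496 on the plus strand for H2ac18 and chr3:96240375-96240524 on the minus strand for H2ac19 (GRCm38.p6, RefSeq). The capitals mark CCAAT or its reverse complement ATTGG, with 2 matches in H2ac18 and 1 in H2ac19, and the 300 bases around the starts shared an unbroken run of 219 bases.
H2ac18: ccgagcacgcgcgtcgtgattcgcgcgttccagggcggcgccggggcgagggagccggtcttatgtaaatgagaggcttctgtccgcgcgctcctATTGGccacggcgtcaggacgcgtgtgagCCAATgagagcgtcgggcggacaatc
H2ac19: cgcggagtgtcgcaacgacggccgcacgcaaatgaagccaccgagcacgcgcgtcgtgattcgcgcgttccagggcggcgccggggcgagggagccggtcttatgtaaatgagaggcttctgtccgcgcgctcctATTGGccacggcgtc

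Histone transcripts of these copies are nearly alike, so the probes may share them. H2ac23, a further histone H2A gene, read 2.77 and 2.69 in the IPC AAR, where it was not above background, and 3.14 and 3.08 in the RM (adjusted p = 0.0323), and no fold can be given. It passed in 4 of 13 alternatives, and with normexp its log2 difference turned to 0.0319 (adjusted p = 0.676). Taf1a, a TBP-associated factor of RNA polymerase I, read 12.54 and 12.53 in the IPC AAR, 11.96 and 11.96 in the RM, and 12.83 and 12.60 in the sham AAR (0.58 ± 0.07, adjusted p = 0.00992). The other members that passed were Sly and Ssty1, given above. Zfp131, a BTB zinc finger protein, and H2al2b were tested and did not pass, and Obox2 and Ssty2 were not tested.

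Of the 9 immune members 8 were tested, and 6 passed the adjusted p, all higher in the AAR, against 49.2% of all probes that passed and 28.5% that passed and were higher. Each fold was below 2, but with 75th percentile scaling Ccl21b, Ccl21c and Gm13304 reached log2 fold changes of 1.48 to 1.51 and Tagap 1.09. With the mouse as a block 5 passed, and Ccl28 did not (adjusted p = 0.0516). Ccl21b and Ccl21c encode a chemokine that draws dendritic cells and T cells to lymph nodes, and Gm13304 is a further copy by its synonyms. Ccl21b read 13.42 and 13.37 in the IPC AAR, 12.51 and 12.60 in the RM, and 13.31 and 12.98 in the sham group. The RM was the lowest group. The IPC AAR lay above the sham AAR by a log2 fold change of 0.25 ± 0.18, which did not pass (adjusted p = 0.362). The AAR was higher than the RM by 0.84 ± 0.08 for Ccl21b (adjusted p = 0.00626), 0.80 ± 0.07 for Ccl21c (adjusted p = 0.00547) and 0.82 ± 0.07 for Gm13304 (adjusted p = 0.00525). Near-identical sequence can let their probes read the same transcripts. Ulbp1, a ligand of the NKG2D receptor of killer cells, read 7.90 and 7.90 in the IPC AAR, 7.09 and 6.81 in the RM, and 7.41 and 7.02 in the sham AAR (0.95 ± 0.13, adjusted p = 0.0123). Tagap, a gene known from T cells, was higher by 0.82 ± 0.10 and Ccl28, a mucosal chemokine, by 0.66 ± 0.14. The defensin-like members AY761185 (0.78 ± 0.29, adjusted p = 0.106) and Gm6040 did not pass, and Defb33 was above background on no array. No leukocyte marker is named among the probes, so whether leukocyte content moved with these values was not tested.

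**Figure D4:**
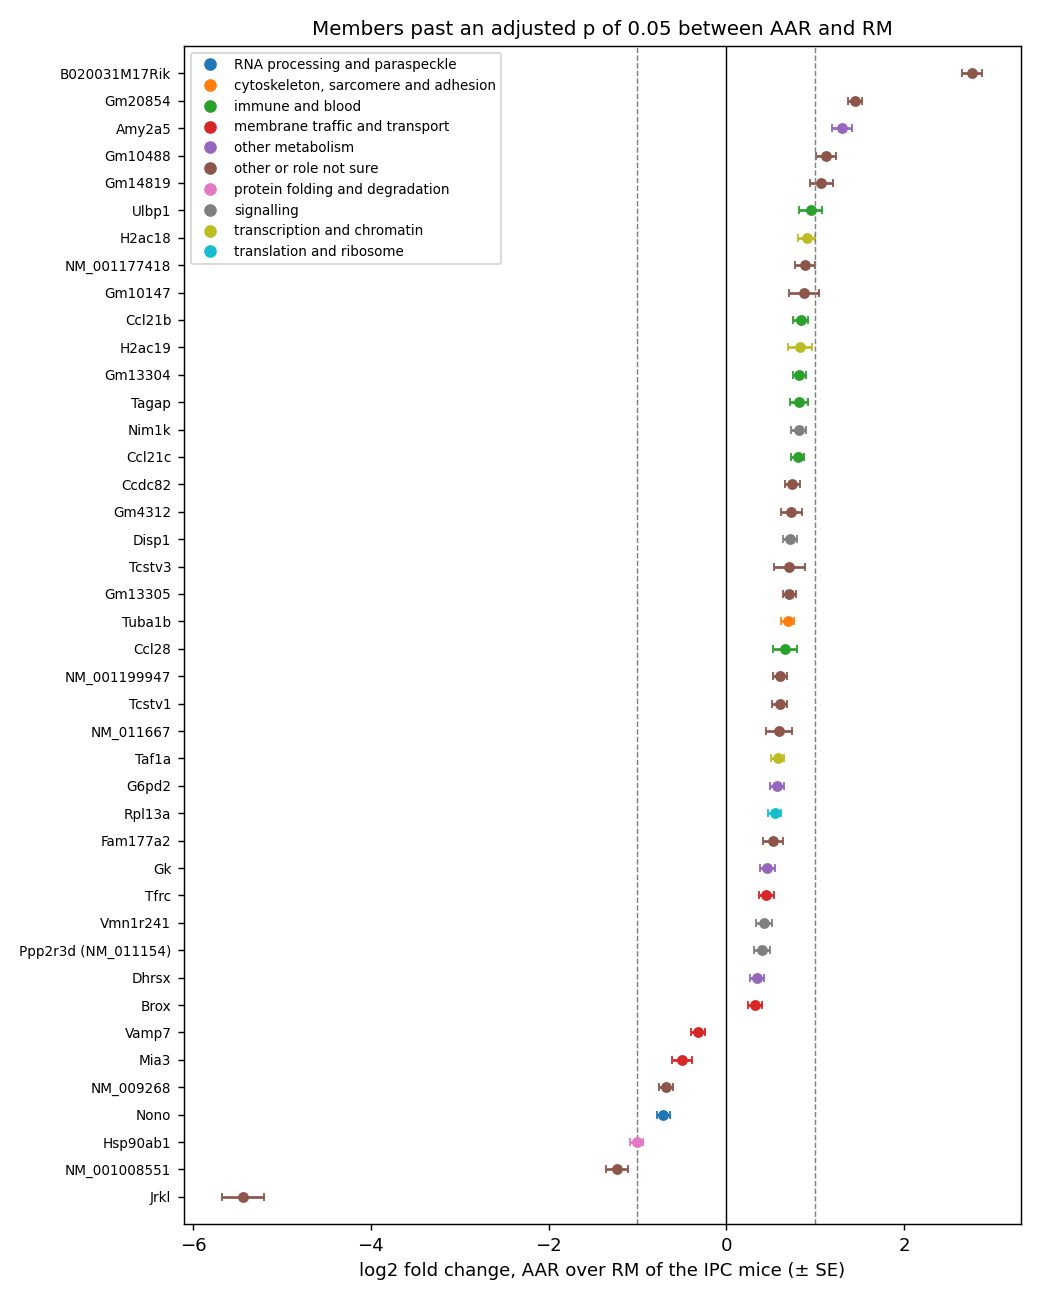
Log2 fold change of AAR over RM in the IPC mice (x axis, points with SE bars, 2 arrays per group) for 42 members past an adjusted p of 0.05, colored by function group. The 5 other members past it were dim on both AAR arrays and are not drawn. Dashed lines mark a fold of 2, and the 35 members higher in the AAR lie at the right, from Brox at 0.32 to B020031M17Rik at 2.77.

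Among the members of metabolism other than energy metabolism, 4 of 6 passed and were higher in the AAR, against 28.5% of all probes. With the mouse as a block 1 of them passed, Amy2a5. They were Amy2a5, G6pd2, Gk and Dhrsx, a short-chain dehydrogenase (0.35 ± 0.07, adjusted p = 0.0316). Hmgcs1, the cytosolic HMG-CoA synthase of cholesterol synthesis, read 13.31 and 13.31 in the IPC AAR and 13.08 and 13.09 in the RM, without overlap, but did not pass (0.22 ± 0.07, adjusted p = 0.077; 0.89 with 75th percentile scaling). Of the 2 members of energy metabolism, Tmlhe and Ldhal6b, 0 passed. Tmlhe, the first enzyme of carnitine synthesis, read 4.77 and 5.21 in the IPC AAR, 5.77 and 5.62 in the RM, and 3.49 and 4.63 in the sham AAR (-0.71 ± 0.19, adjusted p = 0.0532). All 4 members of membrane traffic passed, against 49.2% of all probes tested. In the fit with the mouse as a block 0 of 4 passed (adjusted p = 0.126 for Brox, 0.0818 for Mia3, 0.0829 for Tfrc and 0.139 for Vamp7). Tfrc was higher, as was Brox, a BRO1 domain protein (0.32 ± 0.08, adjusted p = 0.0432). Mia3, which loads collagen into carriers that leave the endoplasmic reticulum, was lower (-0.50 ± 0.12, adjusted p = 0.0385), as was Vamp7, a SNARE of late endosomes and lysosomes (-0.32 ± 0.08, adjusted p = 0.0459, and -0.0163 with 75th percentile scaling).

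Of the 19 signalling members, 13 were tested and 4 passed, all higher in the AAR, a share below the 49.2% of all probes that passed. With the mouse as a block 2 passed, Nim1k and Disp1. Nim1k, a kinase related to AMPK, read 6.92 and 6.99 in the IPC AAR, 6.10 and 6.18 in the RM, and 6.30 and 6.03 in the sham AAR (0.81 ± 0.08, adjusted p = 0.00668). Disp1, which releases Hedgehog ligands from cells, read 11.13 and 11.08, and 10.37 and 10.40, with a sham value of 10.63 in mouse 012 and the lowest value of all in mouse 013 (0.72 ± 0.07, adjusted p = 0.00714). For both genes the IPC AAR was above all other arrays. The probes of Ppp2r3d, a regulatory subunit of the phosphatase PP2A, gave 0.40 ± 0.09 (adjusted p = 0.0383) and 0.33 ± 0.12 (adjusted p = 0.105), so the direction was shared and 1 of 2 passed. Aida, which binds axin, did not pass (0.36 ± 0.11, adjusted p = 0.065), nor did Spry3, a Sprouty protein. Of 13 vomeronasal receptors, 6 were above background on all arrays (Vmn1r62, Vmn1r111, Vmn1r135, Vmn1r157, Vmn1r241 and Vmn1r257). Only Vmn1r241 passed, with 5.58 and 5.45 in the IPC AAR, 5.05 and 5.14 in the RM, and 5.06 and 4.27 in the sham AAR (0.42 ± 0.09, adjusted p = 0.0344). Gm10665, Vmn1r63 and Vmn1r93 were above background on no array, and Vmn1r186, Vmn1r187, Vmn1r243 and Vmn1r259 on 1 to 3.

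The other members that passed were all higher in the AAR. Tcstv1 and Tcstv3 are genes of the early cleavage embryo, and were higher by 0.60 ± 0.09 (adjusted p = 0.0138) and 0.71 ± 0.18 (adjusted p = 0.0437). Gm4312 (0.73 ± 0.12), Gm13305 (0.71 ± 0.08) and Fam177a2 (0.52 ± 0.11) have no role that is given here. AF067063, Gm1140, Gm16367, Mucl2, Ott, Pramel37, Pramel39 and Tdpoz5 were above background on at most 1 array and were not tested. BC147527, Btbd35f4, Csprs, E330014E10Rik, Fam205a2, Gm16513, Gm21953, Gm6710, Nlrp4g and both probes of Gm3286 were tested and did not pass. By the order of genes in the RefSeq table some members are neighbours. On chromosome 1, Disp1, Brox, Aida, Mia3, Taf1a and Hhipl2 follow each other with 1 other protein-coding gene between them. Of these 6, 3 were higher in the AAR, Mia3 was lower, and Aida and Hhipl2 did not pass. Over all probes tested, 49.2% passed and 28.5% passed and were higher. In the fit with the mouse as a block, Disp1 alone of the 6 passed. On chromosome 13, 4 of the 6 tested neighbours from Ccl28 to B020031M17Rik passed (Ccl28, Nim1k, Tcstv1 and B020031M17Rik), all higher in the AAR. Ccl28 (adjusted p = 0.0516) and Tcstv1 (adjusted p = 0.0552) did not pass with the mouse as a block.

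The comparison of IPC AAR with sham AAR asks what preconditioning changed in the same region of the heart. It shares the IPC AAR arrays with the comparison above. Of the 112 members 76 were tested, and 3 passed the adjusted p (3.95%), against 9.35% of all 40161 probes tested. Of these 3, Gm20738 and Tcstv1 were higher (3.2% of all probes were) and Hsp90ab1 was lower. With a fold above 2, Gm20738 alone was called (4 members with 75th percentile scaling, 3 higher and 1 lower), and 8.56% of all probes were called, 2.78% as higher. Gm20738, a Y-linked gene of uncertain role, read 7.13 and 7.25 in the IPC AAR, 7.03 and 7.20 in the RM, and 5.80 and 6.10 in the sham AAR. Both IPC groups lay above the sham group. The log2 fold change over the sham AAR was 1.24 ± 0.18 for the IPC AAR (adjusted p = 0.039) and 1.17 ± 0.19 for the RM (adjusted p = 0.181). Tcstv1 read 7.26 and 7.39 in the IPC AAR, 6.73 and 6.73 in the RM, and 6.43 and 6.41 in the sham AAR, so the IPC AAR was the highest group (0.91 ± 0.15 over the sham AAR, adjusted p = 0.0453). Hsp90ab1 was lower than in the sham AAR (-0.94 ± 0.14, adjusted p = 0.0397, and -0.37 with 75th percentile scaling, adjusted p = 0.226, with 0.00237 to 0.324 over 13 alternatives). Amy2a5 had a log2 fold change of 0.73 ± 0.17 (adjusted p = 0.0752). The counts turned on single arrays: without the sham AAR of mouse 012 there were 16 called and 33 past the adjusted p, without that of mouse 013 there were 1 and 1, and without either IPC AAR array there were 0 and 0.

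In the comparison of IPC RM with sham AAR, which also differ by region, 88 members were tested and 0 passed the adjusted p in limma, as did 0 of the 46061 probes tested (a background of 0%), while 26 members were below 0.05 without adjustment. The count by the methods' t-test was 0 after adjustment and 20 before it. Without the sham array of mouse 012 there were 10 members called and 13 past the adjusted p, and without that of mouse 013 there were 17 and 23. The lowest adjusted p of any probe was 0.159, which B020031M17Rik, Ssty1 and Gm20736 reached among the members. A p that misses the threshold does not show that the levels were alike. Over all 6 arrays, Jrkl, Gm10488, Gm14819, Gm10147 and NM_001008551 had sham values further apart than the values within either IPC group, and Nono and Hsp90ab1 had sham values close together.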

How the data were processed

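Each array's scanner file was produced by the authors with Agilent Feature Extraction (version 11.0.1.1 per the file headers). Of the deposited columns the processed intensity was used, from which the authors' software had removed background, with no normalization between arrays. A deposited table of normalized values was not used, because its column names match no sample. Control and negative-control spots were left out, which kept 59994 spots per array. Of these, outlier spots (17 to 29 per array) were also left out. Intensities were log2 transformed, averaged per probe and put through the quantile normalization that the methods name, across all 6 arrays (limma 3.58.1 in R 4.3.3). A probe was well above background where at least 0.5 of its spots were so marked. The 4 arrays of a comparison were fitted with lmFit and eBayes, with Benjamini-Hochberg adjustment over all probes tested. Calls required a fold above 2 besides an adjusted p below 0.05. A fold against a group that was dim on both arrays was computed against the lowest signal that any probe marked above background had there. It is an approximate lower bound, since a probe can lie above that signal and not be marked. Gm6040 read 4.68 on the sham array of mouse 012 without the mark, where the lowest marked signal was 4.60.

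RefSeq accessions were matched without versions to the RefSeq table of GRCm38.p6, and 112 of 118 on the array had a symbol. Since the design of the array rests on a different build, coordinates are given for promoter windows only. Promoter entries were found for 83 members. Hsp90ab1, Sly and B020031M17Rik had none, and that of Jrkl was mostly unresolved, so no promoter is shown for these. Members, function groups and lists were chosen with earlier results of these data known. Values on every array were given for Nono and for every member called in a comparison by rule, and the further members described with array values were chosen after their values were seen. Biopsies that carry the same mouse number share an animal by the records, which pairs the AAR with the RM. The contrast of mouse 004 with mouse 008 in the AAR correlated with the same contrast in the RM at r = -0.0875 over 46232 probes and 0.283 over 87 tested members. Genes are not independent replicates. With 2 arrays per group, an exact permutation test of a single gene cannot give a p below 0.333, and the number of arrays limits the precision.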

Additional observations from a re-analysis of the deposited data

How the results depend on the processing

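Other settings were tried for each comparison: the 75th percentile for scaling, quantile normalization of just the 4 arrays used, normexp with an offset of 50 on median signals, dim probes filtered more strictly or kept, the t-test of the methods, a joint fit of the 6 arrays, eBayes with an intensity trend, no removal of outlier spots, omission of each array and, between AAR and RM, the mouse as a replicate block. For IPC AAR against IPC RM, 11 members were called and 47 passed the adjusted p. The called number was 25 with 75th percentile scaling, 5 with normexp, 7 with the stricter filter, which tests fewer members, and 7 in the 6-array fit. The number past the adjusted p was 30 with the methods' t-test, 27 in the 6-array fit and 30 with the mouse as a replicate block, which pairs the samples (20 higher and 10 lower, with 12 called). With each array left out, the lone array being assumed to vary like the other group, called members ranged from 5 to 17 and those past the adjusted p from 5 to 44. Normexp moved the median over all probes from 0.20 to 0.10. For IPC AAR against sham AAR, 1 member was called and 3 passed. The numbers were 4 (3 higher) and 6 (5 higher) with 75th percentile scaling, 0 and 5 with normexp, 4 and 14 in the 6-array fit and 3 and 10 with the intensity trend. They were 0 and 0 with no filter, where 23 members had an unadjusted p below 0.05, and 0 and 0 with the methods' t-test, where 12 did. With each array left out they ranged from 0 to 16 called and from 0 to 33 past. For IPC RM against sham AAR, 0 were called and 0 passed, with 26 at an unadjusted p below 0.05. There was 1 in both counts in the 6-array fit and 1 with the trend, and leaving out an array gave 0 to 17 called and 0 to 23 past. In each other alternative the counts stayed within 1.5 times. The sign turned for Hsp90ab1 with 75th percentile scaling, to 0.0503 between IPC AAR and RM and to -0.42 between RM and sham AAR. It turned for Tsnax, to 0.80 with that scaling, and its value ranged from -0.0484 to 0.0114 with each array left out. Between IPC AAR and RM that scaling turned the sign for 5 of 87 members, of which 1, Hsp90ab1, had passed the adjusted p. The others were Tsnax, Zfp131 (to 0.51, limma adjusted p = 0.0309), Gm6710 (to 0.11) and Vmn1r243 (to 0.0265). Among members past the adjusted p the sign also turned for H2ac23, to 0.0319 with normexp. Apart from the scaling, whose construction shifts all values of an array alike, the cause was not tested. Many Y-linked and vomeronasal probes were not above background, and their values have no order there.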
